A study of Mus musculus with 6 samples.

Results

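The vascular ATP-sensitive potassium channel and the gap junction proteins of renin cells were followed in As4.1 cells through 6 genes. They are Kcnj8, which encodes the pore subunit Kir6.1, Abcc9, which encodes the sulfonylurea receptor Sur2, and the connexin genes Gja1, Gja4, Gja5 and Gjc1 (connexins 43, 37, 40 and 45). Every probe set that the array annotation gives to a single one of these genes was taken, which gave 14 probe sets for 6 of the 18194 genes on the array. As4.1 is a mouse line grown from a kidney tumour of renin-lineage cells in which a renin promoter drove SV40 T antigen, so it is a transformed, proliferating model held as 1 line. Cells received an interleukin, hydrogen peroxide or vehicle, with 2 samples in each of the 3 groups, each hybridised to its own Affymetrix mouse genome array. The sample titles number the samples of a group 1 and 2 and do not say whether they were separate cultures. The labels give no genotype and no treatment beyond the interleukin, hydrogen peroxide and vehicle. They name neither which interleukin was used nor doses and times.

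Renin cells line the afferent arteriole of the kidney as modified smooth muscle cells and are close kin of pericytes. Their ATP-sensitive potassium channel joins Kir6.1 pores with Sur2 regulatory subunits, opens when cellular ATP is low or when channel openers are given, and hyperpolarises the cell when open. Connexins form gap junctions that pass ions and small messengers between these cells and to the endothelium, and loss of connexin 40 in mice is known to displace renin cells and to raise renin secretion.

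The main differences lay in the channel genes. Kcnj8 fell under hydrogen peroxide 3.13-fold below its vehicle signal and Abcc9 fell with it, while under the interleukin neither passed the test against vehicle. The Abcc9 call was the less firm, as it rested on every hydrogen peroxide and vehicle array. Gja1 was called higher under the interleukin in 2 of its 6 probe sets and by less than 1.3-fold. Over all tested probe sets 7.58% were called higher. The brightest Gja1 probe set did not pass (log2 0.10, limma adjusted p = 0.36). Another went the other way and did not pass (log2 -0.42, limma adjusted p = 0.146). In a fit without a variance trend on signal, the Gja1, Kcnj8 and Abcc9 calls against vehicle were all lost. Gjc1 passed in no comparison, and Gja4 and Gja5 gave signals too low to be tested.

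Promoter windows are shown for the 3 genes that were called, because Kcnj8 and Abcc9 are neighbours on chromosome 6 that fell together. Each is the 250 bases before the RefSeq start, 5′ to 3′ on the gene's strand, in build GRCm38.p6. The windows are chr6:142571615-142571864 on the minus strand for Kcnj8, chr6:142702275-142702524 on the minus strand for Abcc9 and chr10:56377050-56377299 on the plus strand for Gja1. Capitals mark matches to the motifs searched other than the E-box.
Kcnj8: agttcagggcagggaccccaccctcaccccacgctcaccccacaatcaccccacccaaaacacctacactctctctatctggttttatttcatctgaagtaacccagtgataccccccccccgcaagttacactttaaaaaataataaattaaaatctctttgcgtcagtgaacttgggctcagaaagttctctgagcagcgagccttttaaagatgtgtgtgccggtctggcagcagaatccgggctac
Abcc9: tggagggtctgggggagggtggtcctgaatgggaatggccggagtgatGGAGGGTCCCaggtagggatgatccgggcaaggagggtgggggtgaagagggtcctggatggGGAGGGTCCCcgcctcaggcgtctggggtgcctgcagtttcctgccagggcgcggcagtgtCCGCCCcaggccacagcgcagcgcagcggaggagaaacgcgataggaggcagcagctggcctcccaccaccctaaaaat
Gja1: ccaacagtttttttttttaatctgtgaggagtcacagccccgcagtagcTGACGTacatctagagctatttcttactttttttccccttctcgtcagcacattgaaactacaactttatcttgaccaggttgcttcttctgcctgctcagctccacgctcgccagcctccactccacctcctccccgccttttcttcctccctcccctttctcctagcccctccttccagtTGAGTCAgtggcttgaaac
The motifs, searched on both strands, were TATAAA, the AP-1 site TGANTCA, the cAMP response element core TGACGT, the GC box GGGCGG, the E-box CANNTG, the antioxidant response element core TGACNNNGC, and the NF-kappaB, MEF2 and CArG sites. The Kcnj8 window held an E-box at -160 to -155 and none of the other motifs, where -1 is the base before the start. The Abcc9 window held a GC box at -79 to -74, NF-kappaB site matches at -202 to -193 and at -140 to -131, and an E-box at -27 to -22. The Gja1 window held an AP-1 site at -19 to -13, a cAMP response element core at -201 to -196, and an E-box at -23 to -18 that overlaps the AP-1 site. Over 32817 RefSeq windows of this length, 66.2% held an E-box, 32.7% a GC box, 7.25% an NF-kappaB site, 6.75% an AP-1 site and 6.46% a cAMP response element core. For the motifs with no match in these 3 windows the shares were 12.4% for TATAAA, 10.2% for the antioxidant response element core, 2.92% for the MEF2 site and 1.47% for the CArG site. The GC content was 49.2% for Kcnj8, 66.8% for Abcc9 and 50.0% for Gja1, beside a median of 52.4% over all windows. These matches describe the letters of the windows, and binding was not measured.

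The values are MAS5 signals, which are probe set brightnesses scaled so that each array has the same trimmed mean. They depend on each probe set's own affinity, so levels are compared between groups and never between genes. The array medians lay between 192.2 and 232.3, and arrays of 1 group correlated at 0.981 to 0.987 (Pearson, log2) against 0.9535 to 0.9753 between groups. The ratio of 3′ to 5′ probe sets for Actb, which rises as RNA breaks down or is labelled less fully, was 1.46 and 1.55 on interleukin arrays, 1.32 and 1.35 on hydrogen peroxide arrays, and 1.22 and 1.26 on vehicle arrays. For Tfrc it was 3.05 and 3.95 on interleukin arrays, 3.54 and 2.30 on hydrogen peroxide arrays, and 1.85 and 2.14 on vehicle arrays. For Pcx it was 2.30 and 2.46 on interleukin arrays, 2.89 and 2.03 on hydrogen peroxide arrays, and 1.66 and 1.59 on vehicle arrays. On these 3 transcripts every treated array lay above both vehicle arrays, while for Gapdh the ratios were 0.825 to 0.873 over the 6 arrays and hydrogen peroxide overlapped vehicle. The part of this in the Kcnj8 and Abcc9 differences was not tested. Of 45037 probe sets, the 22519 with the higher mean log2 signals were tested with limma, and a call is an adjusted p under 0.05. With 2 arrays a group, exact permutation of a single gene could give no p under 0.333, so the tests rest on a spread that limma shares across probe sets. All 3 comparisons share arrays, so their calls are not independent of each other.

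Kcnj8 was read by 1 probe set, 1418142_at. Its signals were 1594.8 and 2521.9 with the interleukin, 849.6 and 671.8 with hydrogen peroxide, and 2405.1 and 2326.6 with vehicle. Both hydrogen peroxide arrays lay below all 4 others, and the interleukin arrays lay on either side of the vehicle arrays. Signals averaged 761 ± 126 with hydrogen peroxide and 2366 ± 55.5 with vehicle (SD, n = 2 each), a log2 change of -1.65 ± 0.21 (SE, limma adjusted p = 0.00255), or 3.13-fold lower. The interleukin mean was 2058 ± 656 (SD, n = 2), with a log2 change from vehicle of -0.24 (95% interval -0.71 to 0.23, limma adjusted p = 0.495). That change was 0.092 without interleukin array 1. Between the treatments, Kcnj8 was 2.65-fold higher with the interleukin than with hydrogen peroxide (log2 1.41 ± 0.21 SE, limma adjusted p = 0.00235). In these cultures fewer cells of one kind and less RNA per cell cannot be told apart.

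Abcc9 was read by 3 probe sets, of which only 1435752_s_at passed the filter on low signals. It read 550 and 705.3 with the interleukin, 364.3 and 415.8 with hydrogen peroxide, and 694.6 and 769.4 with vehicle. As for Kcnj8, both hydrogen peroxide arrays lay below all the others. The mean was 390 ± 36.4 with hydrogen peroxide and 732 ± 52.9 with vehicle (SD, n = 2 each), a log2 change of -0.91 ± 0.22 (SE, limma adjusted p = 0.0415), or 1.88-fold lower. This call rests on every array of the pair: the adjusted p was 0.175 without hydrogen peroxide array 1, 0.0777 without hydrogen peroxide array 2, 0.158 without vehicle array 1 and 0.259 without vehicle array 2. With the interleukin the mean was 628 ± 110, and the log2 change from vehicle was -0.23 (95% interval -0.73 to 0.26, limma adjusted p = 0.531). Between the treatments the log2 difference, interleukin over hydrogen peroxide, was 0.68 (95% interval 0.18 to 1.17), and it missed the threshold at an adjusted p of 0.0906.

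The 2 remaining Abcc9 probe sets lay under the filter and were left out of the main test. Probe set 1435751_at read 191.8 and 240.1 with the interleukin, 33.9 and 94.8 with hydrogen peroxide, and 196.3 and 188.8 with vehicle. Probe set 1420408_a_at read 165.3 and 233 with the interleukin, 78.9 and 108.1 with hydrogen peroxide, and 220.3 and 146.6 with vehicle. In all 3 Abcc9 probe sets both hydrogen peroxide arrays lay below both vehicle arrays, with log2 changes of -0.91, -1.76 and -0.96. Over all tested probe sets, 55.3% had no overlap between these groups. In the fit without the filter neither 1435751_at nor 1420408_a_at passed (limma adjusted p = 0.215 and 0.455).

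Kcnj8 and Abcc9 adjoin each other on chromosome 6 in the RefSeq gene order, with 0 genes between them. Their nearest flanking genes with a tested probe set, looked up after the values of both were seen, were Ldhb and Cmas. Ldhb, a lactate dehydrogenase subunit, read 2165.3 and 2553 with the interleukin, 1226.5 and 1257.8 with hydrogen peroxide, and 1182.9 and 1473.4 with vehicle. Its log2 change was 0.83 with the interleukin (limma adjusted p = 0.00612) and -0.09 with hydrogen peroxide (adjusted p = 0.798). Cmas, which activates sialic acid, changed by 0.04 with hydrogen peroxide (limma adjusted p = 0.867) and by -0.01 with the interleukin (adjusted p = 0.943). Gys2, Spx and St8sia1, also nearby, lay under the filter.

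The other pore gene of such channels was higher than vehicle with both treatments in its 1 tested probe set. Kcnj11 encodes Kir6.2, the pore of the ATP-sensitive channel of beta cells and heart muscle, and was the only one of 15 other inward rectifier and related genes to be tested. Its probe set 1455417_at read 6542.2 and 5112.3 with the interleukin, 5036.6 and 4145.1 with hydrogen peroxide, and 2545.2 and 2933.8 with vehicle, so every treated array lay above both vehicle arrays. It was 2.12-fold higher with the interleukin (log2 1.08 ± 0.15 SE, limma adjusted p = 0.000996) and 1.67-fold higher with hydrogen peroxide (log2 0.74 ± 0.15 SE, adjusted p = 0.0202). The hydrogen peroxide call was lost without hydrogen peroxide array 1 (adjusted p = 0.141), vehicle array 1 (0.149) or vehicle array 2 (0.0765). A further Kcnj11 probe set, 1450515_at, lay under the filter at 13.2 and 176.3 with the interleukin, 87.8 and 94.3 with hydrogen peroxide, and 164.9 and 83.5 with vehicle. Its groups overlapped, and log2 changes of -1.28 with the interleukin (95% interval -3.72 to 1.16) and -0.37 with hydrogen peroxide (95% interval -2.80 to 2.07) show no direction. Abcc8, the Sur1 gene, lay under the filter at 188.1 and 135.3 with the interleukin, 92.3 and 153.4 with hydrogen peroxide, and 208.3 and 207 with vehicle.

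**Figure D1:**
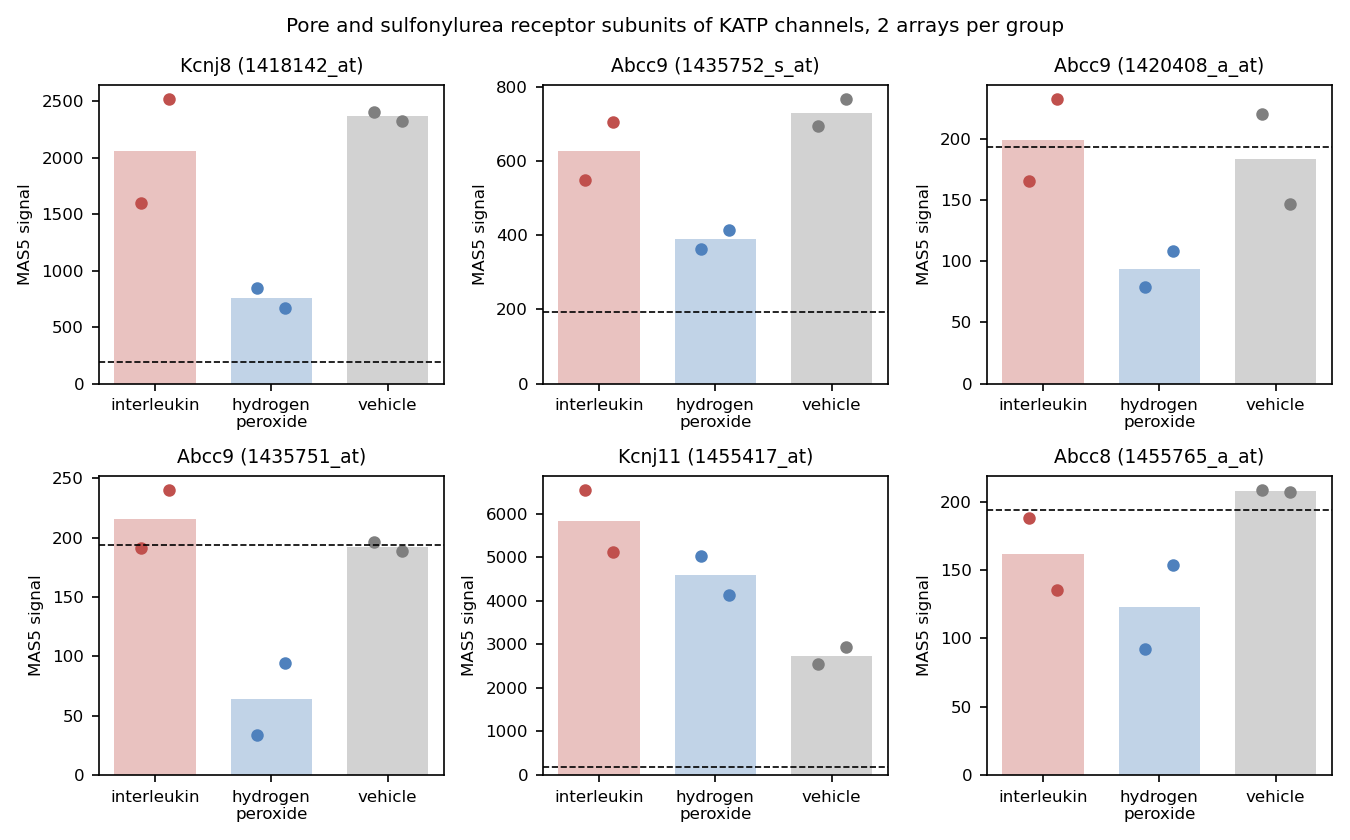
MAS5 signal for the probe sets of ATP-sensitive channel subunits, Kcnj8, 3 of Abcc9, Kcnj11 and Abcc8, with a point for each of 2 arrays in the interleukin, hydrogen peroxide and vehicle groups, bars for group means and a dashed line at 193.7, the geometric mean signal at which the filter lies. Hydrogen peroxide arrays are the lowest in the Kcnj8 panel (849.6 and 671.8) and in the 3 Abcc9 panels, while treated arrays are above vehicle in the Kcnj11 panel.

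Gja1 encodes connexin 43, the most widespread connexin, found in smooth muscle, pericytes and many cell lines. Of its 6 probe sets, 4 gave small and ordered differences. Probe set 1438945_x_at read 46304.9 and 48156.2 with the interleukin, 38002.9 and 38520.7 with hydrogen peroxide, and 35008.9 and 38068.7 with vehicle. It was 1.29-fold higher with the interleukin than with vehicle (log2 0.37 ± 0.07 SE, limma adjusted p = 0.00611), with an adjusted p of 0.0790 without vehicle array 1. Probe set 1438650_x_at read 48347.8 and 52760.7 with the interleukin, 42672.8 and 40835.1 with hydrogen peroxide, and 42522.6 and 42349.7 with vehicle. Its log2 change with the interleukin was 0.25 (limma adjusted p = 0.0374), lost without interleukin array 2 (adjusted p = 0.144), vehicle array 1 (0.166) or vehicle array 2 (0.176).

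A further 2 Gja1 probe sets did not pass against vehicle. Probe set 1437992_x_at read 62101.5 and 64667.4 with the interleukin, 51855.9 and 52380 with hydrogen peroxide, and 56448.7 and 56099.5 with vehicle, a log2 change with the interleukin of 0.17 (limma adjusted p = 0.0924). Probe set 1415800_at read 62526.1 and 59462.8 with the interleukin, 54347 and 54154.6 with hydrogen peroxide, and 58647.2 and 55458.3 with vehicle. Its log2 change with the interleukin was 0.10 (95% interval -0.05 to 0.24, limma adjusted p = 0.36). On all 4 of these probe sets both interleukin arrays lay above both vehicle arrays. Over all tested probe sets, 59.0% had no overlap between these groups in either direction. The highest signals on the arrays ran from 92632 to 105276, so these probe sets were read in the upper part of the range, and whether the scanner's ceiling compresses them was not tested.

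Between the treatments, 3 Gja1 probe sets were called higher with the interleukin than with hydrogen peroxide, where 4.95% of all tested probe sets were called higher. The log2 differences were 0.28 for 1437992_x_at (limma adjusted p = 0.0195), 0.27 for 1438650_x_at (adjusted p = 0.0382) and 0.30 for 1438945_x_at (adjusted p = 0.0254), and 0.17 for 1415800_at (adjusted p = 0.147). Without interleukin array 2 all 3 calls were lost, at adjusted p of 0.0777, 0.156 and 0.0995. They were also lost without hydrogen peroxide array 1 (0.0813, 0.0805 and 0.100) and without hydrogen peroxide array 2 (0.103, 0.224 and 0.122). The call of 1438650_x_at was further lost without vehicle array 1 (0.0771) or vehicle array 2 (0.0772). Against vehicle, hydrogen peroxide changed these 4 probe sets by log2 values from -0.11 to 0.068, and none passed.

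The last 2 Gja1 probe sets went their own way. Probe set 1415801_at read 24734.9 and 17241.2 with the interleukin, 16952.3 and 24450.6 with hydrogen peroxide, and 26388.2 and 28875.9 with vehicle, with all treated arrays below both vehicle arrays. Its log2 changes of -0.42 with the interleukin (limma adjusted p = 0.146) and -0.44 with hydrogen peroxide (adjusted p = 0.182) did not pass. Probe set 1438973_x_at read 1131 and 266.3 with the interleukin, 1112.3 and 109.7 with hydrogen peroxide, and 785.1 and 107.4 with vehicle. Its spread within groups was wider than any difference between them, with log2 changes of 0.92 ± 1.09 with the interleukin and 0.27 with hydrogen peroxide (limma adjusted p = 0.621 and 0.918). The log2 differences, interleukin over hydrogen peroxide, were 0.02 for 1415801_at (limma adjusted p = 0.962) and 0.65 for 1438973_x_at (adjusted p = 0.771).

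Gjc1 encodes connexin 45, a low-conductance connexin of smooth muscle and the heart's conduction tissue, and its probe sets differed from each other. Probe set 1449094_at read 1459.9 and 1121.9 with the interleukin, 1414.9 and 1492.4 with hydrogen peroxide, and 1292.2 and 1367.9 with vehicle. Its log2 changes were -0.05 with the interleukin (limma adjusted p = 0.86) and 0.13 with hydrogen peroxide (adjusted p = 0.702). Probe set 1447787_x_at read 252.2 and 346.7 with the interleukin, 281.4 and 350.7 with hydrogen peroxide, and 515.9 and 549.3 with vehicle. On this probe set all 4 treated arrays lay below both vehicle arrays, with log2 changes of -0.85 ± 0.28 with the interleukin (limma adjusted p = 0.0668) and -0.76 ± 0.28 with hydrogen peroxide (adjusted p = 0.143), and neither passed.

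Gja4 encodes connexin 37 of endothelium and renin cells, and its probe set 1416255_at lay under the filter. It read 58.6 and 132.6 with the interleukin, 127.6 and 66.3 with hydrogen peroxide, and 92.1 and 140.6 with vehicle, and the groups overlapped. Gja5 encodes connexin 40, the connexin that couples renin cells to their neighbours. Its probe set 1422192_at read 7.6 and 7.6 with the interleukin, 6.3 and 7.2 with hydrogen peroxide, and 9.1 and 5.2 with vehicle, far under the filter of 193.7. At these signals the arrays could not show a fall or a small rise of Gja5, and none read it above 9.1. Its presence is not settled by these arrays.

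**Figure D2:**
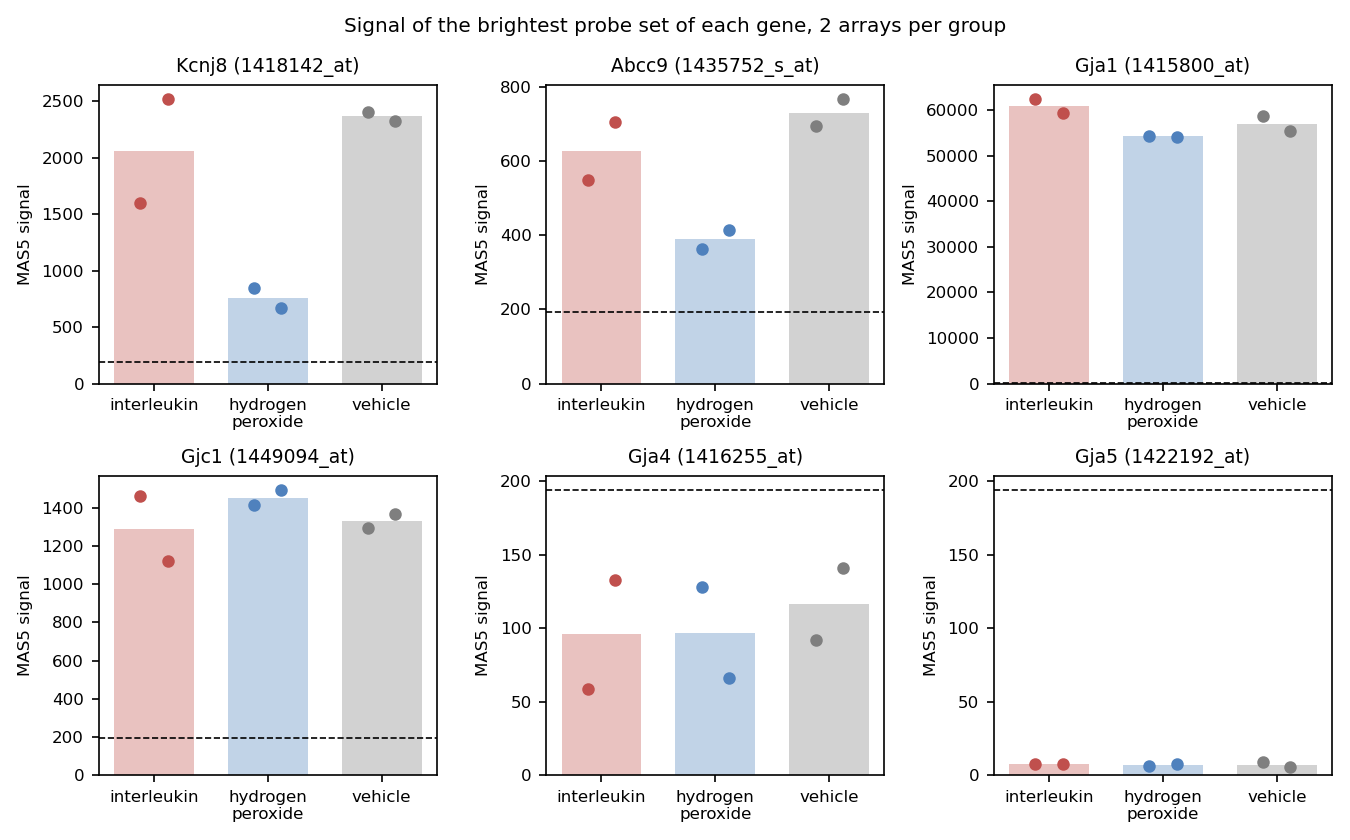
MAS5 signal for 1 probe set of each of the 6 genes, with a point for each of 2 arrays in the interleukin, hydrogen peroxide and vehicle groups, bars for group means and a dashed line at 193.7, the geometric mean signal at which the filter lies. Kcnj8 and Abcc9 dip with hydrogen peroxide, the Gja1 and Gjc1 groups differ little, and every Gja4 and Gja5 array lies below the line.

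**Figure D3:**
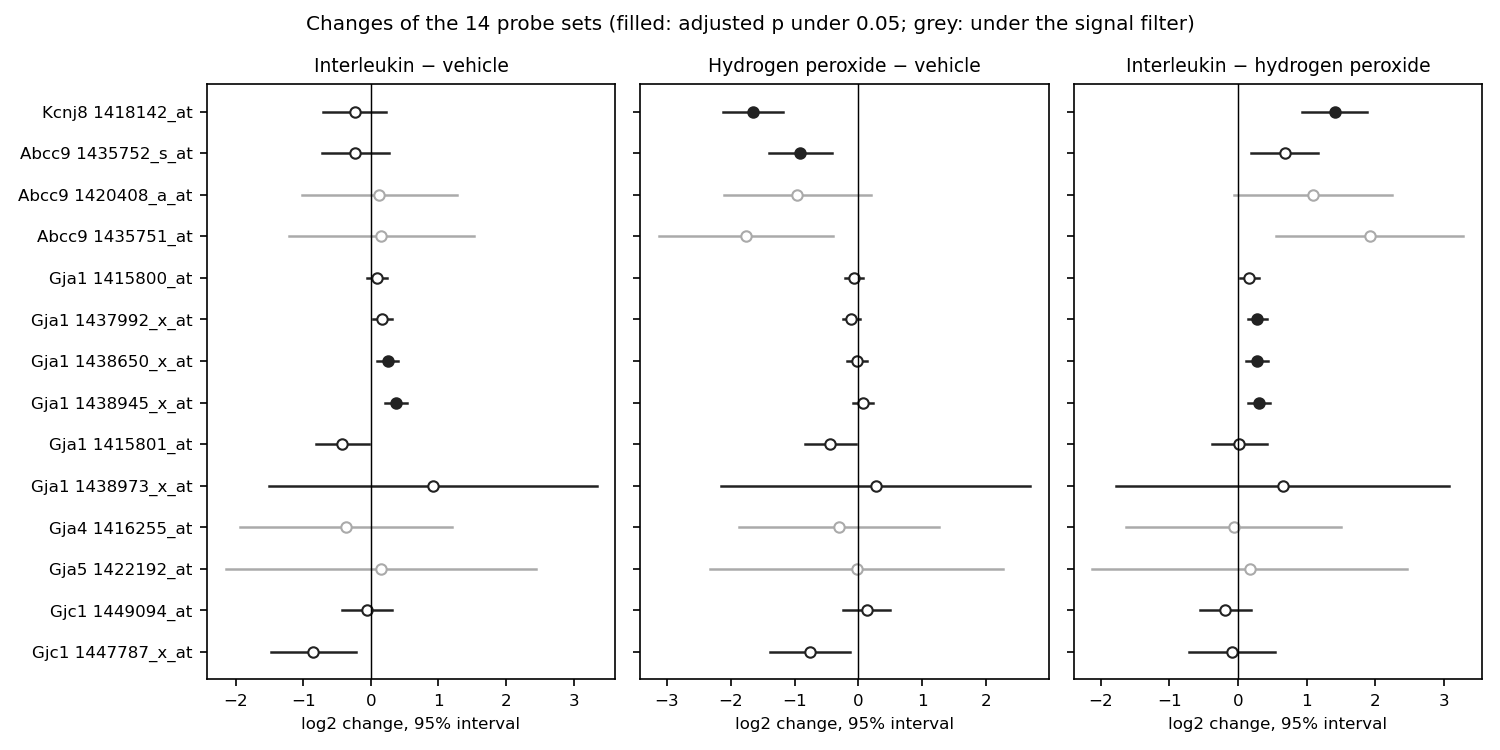
Log2 change with its 95% interval for each of the 14 probe sets, in panels for interleukin minus vehicle, hydrogen peroxide minus vehicle, and interleukin minus hydrogen peroxide, with filled points for called probe sets and grey ones for those under the filter. Kcnj8 at -1.65 and Abcc9 at -0.91 are the calls with hydrogen peroxide, and Gja1 at 0.25 and 0.37 those with the interleukin.

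Counted over the 10 member probe sets tested, of which 6 read Gja1, the interleukin gave 2 higher and 0 lower calls against vehicle, where 16.1% of all tested probe sets were called, 7.58% higher and 8.52% lower. Hydrogen peroxide gave 0 higher and 2 lower calls, where 5.69% were called, 3.05% higher and 2.65% lower. Between the treatments 4 were higher with the interleukin and 0 lower, where 8.82% were called, 4.95% higher and 3.87% lower. Groups did not overlap for 6 of the 10 with the interleukin, 7 with hydrogen peroxide and 6 between the treatments. Over all tested probe sets the shares without overlap were 59.0%, 55.3% and 51.7%, so the members' counts without overlap were near that background. The 2 members called lower with hydrogen peroxide are the 2 subunits of 1 channel. The median log2 change of the 10 was 0.02 with the interleukin, -0.09 with hydrogen peroxide and 0.28 between the treatments, beside -0.02, 0.02 and -0.05 over all tested probe sets. Over the whole array hydrogen peroxide gave 686 higher and 596 lower calls, a split that turned to 602 and 879 when arrays were centred on their 75th percentiles. Kcnj8 and Abcc9 were lower under that centring too.

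Other potassium channels were mostly too dim to test. Of 50 listed genes 7 were tested, and the interleukin gave 1 higher and 2 lower against vehicle, where 16.4% of all tested genes were called, 9.78% higher and 6.61% lower. Kcne4, an accessory subunit that damps voltage-gated channels, averaged 7614 ± 1075 with the interleukin and 13539 ± 301 with vehicle (SD, n = 2 each), a log2 change of -0.84 (limma adjusted p = 0.000545). With hydrogen peroxide it was 13324 ± 225, so it was also lower with the interleukin than with hydrogen peroxide (log2 -0.81, adjusted p = 0.000885). Kcnd1, a pore of transient outward current, was 2.04-fold higher with the interleukin (limma adjusted p = 0.0225), and Kcnk5, a 2-pore background channel, was 1.43-fold lower (adjusted p = 0.0303). Both calls were lost without interleukin array 1 (0.0985 for Kcnd1 and 0.110 for Kcnk5) or vehicle array 1 (0.172 and 0.145). The 2 other tested Kcnd1 probe sets did not pass with the interleukin (limma adjusted p = 0.16 and 0.0871). The Kcnd1 call was also lost without interleukin array 2 (0.0713), and that of Kcnk5 without vehicle array 2 (0.157). A further tested Kcnk5 probe set, 1450398_at, was 2.19-fold lower with the interleukin (limma adjusted p = 0.00234). Hydrogen peroxide gave no call among the 7, where 6.99% of genes were called, 4.08% higher and 2.91% lower. Between the treatments 0 of the 7 were called higher and 2 lower with the interleukin, where 10.4% of genes were called, 6.30% higher and 4.06% lower. Kcnab2, a cytoplasmic subunit of voltage-gated channels, was lower with the interleukin than with hydrogen peroxide (log2 -1.11, limma adjusted p = 0.0494), and lost the call when any single array was left out (adjusted p 0.0810 to 0.205) and with the replicate block (0.0662).

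Other connexins and pannexins were mostly too dim to read. Of 19 listed genes 13 were on the array and 2 were tested, Gjb5 and Panx1, and neither passed in any comparison. Panx1, a channel that releases ATP, read 608.8 and 634.3 with the interleukin, 710.3 and 591.6 with hydrogen peroxide, and 788.4 and 845.8 with vehicle. Its log2 changes were -0.39 (limma adjusted p = 0.202) and -0.33 (adjusted p = 0.351), with all treated arrays below both vehicle arrays. Gjb5 changed by -0.56 with the interleukin (limma adjusted p = 0.168) and -0.23 with hydrogen peroxide (adjusted p = 0.637).

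Of 22 listed genes that bind, anchor or degrade connexins 17 were tested. With the interleukin 1 was higher and 1 lower, where 16.4% of all tested genes were called, and with hydrogen peroxide again 1 was higher and 1 lower, where 6.99% were called. Without single arrays the 2 calls with the interleukin became 0 to 2, with 0 without vehicle array 2 and 1 without interleukin array 2 or vehicle array 1. The 2 calls with hydrogen peroxide became 1 without any single hydrogen peroxide or vehicle array. Ccn3, a secreted matricellular protein known to bind connexin 43, read 11337.8 and 10313.7 with the interleukin, 5783.6 and 4989.5 with hydrogen peroxide, and 12234.5 and 10901.1 with vehicle. It was 2.15-fold lower with hydrogen peroxide than with vehicle (log2 -1.10 ± 0.11 SE, limma adjusted p = 0.000786), and the interleukin arrays overlapped the vehicle arrays. It was 2.01-fold higher with the interleukin than with hydrogen peroxide (limma adjusted p = 0.000284). Nedd4, the ubiquitin ligase that drives connexin 43 turnover, was 1.45-fold lower with the interleukin (limma adjusted p = 0.00875). The Nedd4 call was lost without interleukin array 2 (0.0588) or vehicle array 2 (0.0842). Of its 2 other tested probe sets, 1421955_a_at was lower too (log2 -1.09, limma adjusted p = 0.00274) and 1450431_a_at did not pass (log2 -0.19, adjusted p = 0.123). Dbn1, drebrin, which ties connexin 43 to actin, was higher by 0.45 with the interleukin (limma adjusted p = 0.0221) and by 0.44 with hydrogen peroxide (adjusted p = 0.0478) on the log2 scale. With the interleukin that call was lost without interleukin array 1 (0.0735), vehicle array 1 (0.183) or vehicle array 2 (0.0653). With hydrogen peroxide it was lost without hydrogen peroxide array 1 (0.233) or 2 (0.114), without vehicle array 1 (0.277) or 2 (0.142), and with the replicate block (0.0637). A further Dbn1 probe set did not pass, at -0.04 with the interleukin (limma adjusted p = 0.884) and 0.29 with hydrogen peroxide (adjusted p = 0.27).

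Calls among 16 tested genes of calcium and ion handling included the ATP-gated receptors. The interleukin gave 4 higher and 1 lower, where 16.4% of all tested genes were called, and hydrogen peroxide 2 higher and 1 lower, where 6.99% were called. Without single arrays the interleukin count ran from 2 to 5, with 2 without interleukin array 1 or vehicle array 1 and 3 without vehicle array 2. The hydrogen peroxide count was 0 without vehicle array 1 and 1 without vehicle array 2 or any single hydrogen peroxide array. P2rx4, an ATP-gated cation channel, averaged 5260 ± 784 with the interleukin, 3005 ± 38.3 with hydrogen peroxide and 1993 ± 224 with vehicle (SD, n = 2 each). It was 2.63-fold higher with the interleukin than with vehicle (limma adjusted p = 0.000122), 1.51-fold higher with hydrogen peroxide than with vehicle (adjusted p = 0.0356), and 1.74-fold higher with the interleukin than with hydrogen peroxide (adjusted p = 0.00569). A further tested P2rx4 probe set, 1425525_a_at, did not pass with hydrogen peroxide (1.40-fold, limma adjusted p = 0.0635). It was called with the interleukin (3.05-fold, adjusted p = 3.2e-05) and between the treatments (2.18-fold, adjusted p = 0.000469). P2rx7, the ATP-gated channel of inflammasome activation, was 2.30-fold higher with the interleukin (limma adjusted p = 0.00223) and 2.44-fold higher with hydrogen peroxide (adjusted p = 0.00524) by its brightest probe set. Its 2 other tested probe sets did not pass, with 1.57-fold and 1.09-fold differences with the interleukin (limma adjusted p = 0.118 and 0.847) and 1.66-fold and 1.46-fold differences with hydrogen peroxide (adjusted p = 0.126 and 0.398). Itpr3, a calcium release channel of the endoplasmic reticulum, was 1.5-fold higher with the interleukin (limma adjusted p = 0.0125), as was Itpr2 by 2.61-fold (adjusted p = 0.0183), named after its values were seen. Adcy5, a calcium-inhibited adenylyl cyclase of renin cells, fell by 0.57 with the interleukin (limma adjusted p = 0.0292) and by 0.63 with hydrogen peroxide (adjusted p = 0.0408) on the log2 scale, and a further tested probe set did not pass (log2 -0.61 and -0.73, adjusted p = 0.0745 and 0.0685). The hydrogen peroxide calls of P2rx4 and Adcy5 were lost when any hydrogen peroxide or vehicle array was left out (0.0978 to 0.221 for P2rx4 and 0.106 to 0.303 for Adcy5) and with the replicate block (0.0537 and 0.0508). The call of P2rx7 with hydrogen peroxide was lost without vehicle array 1 (0.0561), and that of Itpr3 without interleukin array 1 (0.0631) or vehicle array 1 (0.121). Itpr2 lost its call when any interleukin or vehicle array was left out (0.0530 to 0.0935). Adcy5 lost its interleukin call without interleukin array 1 (0.118), vehicle array 1 (0.0645) or vehicle array 2 (0.233).

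**Figure D4:**
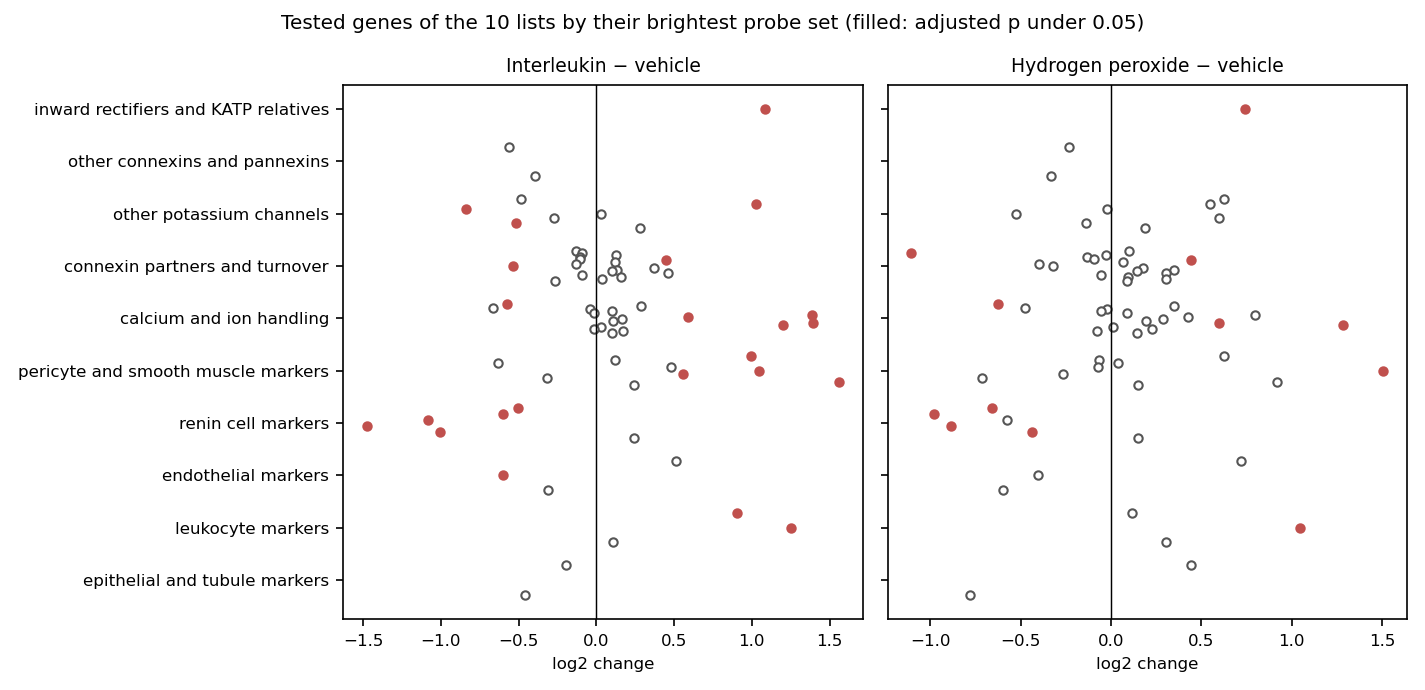
Log2 change of each tested gene of the 10 lists, by its brightest probe set, with the interleukin against vehicle on the left and hydrogen peroxide against vehicle on the right; each point is 1 gene, filled where the adjusted p was under 0.05. Kcnj11 at 1.08 and P2rx4 at 1.40 are called with the interleukin, Ccn3 at -1.10 is the lowest call with hydrogen peroxide, and all called renin cell markers lie below 0 in both panels.

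Markers of renin cells and of mural cells also moved with the treatments, and their part in the Kcnj8 and Abcc9 differences was not tested. Of 12 renin cell markers 6 were tested, and 5 fell with the interleukin and 4 with hydrogen peroxide, where 6.61% and 2.91% of all tested genes were called lower. The 5 became 2 without vehicle array 1 and 3 without vehicle array 2 or interleukin array 1. The 4 became 0 without vehicle array 1 and 1 without vehicle array 2 or any single hydrogen peroxide array. Their summed signal was 24144 to 25786 with the interleukin, 25802 to 28342 with hydrogen peroxide and 38038 to 39626 with vehicle. This sum, like those of the other marker lists below, takes every listed marker on the array, tested or not. Most of that sum came from Crip1 and Pde3b, at means of 17908 and 13182 with vehicle, so it mainly follows these genes. Itga8, an integrin of mesangial and renin cells, averaged 703 ± 134 with the interleukin, 1049 ± 76.7 with hydrogen peroxide and 1936 ± 82.3 with vehicle (SD, n = 2 each). It was lower than vehicle with both (limma adjusted p = 0.000391 with the interleukin and 0.0186 with hydrogen peroxide). A dimmer tested Itga8 probe set, 1427489_at, was lower with both too (log2 -2.50 and -1.32, limma adjusted p = 0.000628 and 0.0419). Pde3b, a cAMP phosphodiesterase, fell by 1.01 with the interleukin and by 0.44 with hydrogen peroxide on the log2 scale (limma adjusted p = 0.000148 and 0.0374). The renin-lineage transcription factor Foxd1 fell by 0.98 with hydrogen peroxide (limma adjusted p = 0.0066) and the LIM protein Crip1 by 0.66 (adjusted p = 0.0152), and Gata3, a transcription factor, fell by 1.08 with the interleukin (adjusted p = 0.00424). Foxd1 and Crip1 were also called lower with the interleukin (limma adjusted p = 0.0257 and 0.0208). Those 2 calls were lost without interleukin array 1 (0.0922 and 0.102), vehicle array 1 (0.204 and 0.150) or vehicle array 2 (0.0740 and 0.0708), and that of Foxd1 without interleukin array 2 too (0.0551). The call of Pde3b with hydrogen peroxide was lost when any hydrogen peroxide or vehicle array was left out (0.0734 to 0.255). Leaving out vehicle array 1 ended the hydrogen peroxide calls of Itga8 (0.139), Foxd1 (0.0841) and Crip1 (0.122) and the interleukin call of Gata3 (0.0513). Itga8 and Foxd1 also lost the hydrogen peroxide call without hydrogen peroxide array 1 (0.109 and 0.0527), Itga8 and Crip1 without hydrogen peroxide array 2 (0.0506 and 0.0705), and both again without vehicle array 2 (0.114 and 0.0756). Renin itself, Akr1b7 and Adrb1 were not analysed here.

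Pericyte and smooth muscle markers gave 4 higher and 0 lower with the interleukin and 1 higher with hydrogen peroxide, of 17 listed and 9 tested, where 9.78% and 4.08% of all tested genes were called higher. Without probe sets whose names end in _x_at or _s_at those counts were 2 and 0. Their summed signal was 31285 to 38617 with the interleukin, 24515 to 25814 with hydrogen peroxide and 21694 to 22175 with vehicle. Most of that sum came from Acta2 and Pdgfrb, at means of 6130 and 9890 with vehicle. Acta2, smooth muscle actin, was 1.99-fold higher with the interleukin (limma adjusted p = 0.00305), Pdgfrb, the pericyte growth factor receptor, 1.47-fold (adjusted p = 0.00327) and Notch3, a mural cell receptor, 2.07-fold (adjusted p = 0.00815). Tagln, an actin-binding protein, was the other one called, at 2.95-fold (limma adjusted p = 0.00892), named after its values were seen, and it was lost without interleukin array 1 (0.0730) or vehicle array 2 (0.0794). Notch3 was also 2.84-fold higher with hydrogen peroxide than with vehicle (limma adjusted p = 0.00398), and its interleukin call was lost without interleukin array 1 (0.0567) or vehicle array 1 (0.0727). The mural markers Rgs5, Des, Myh11 and Cnn1 lay under the filter.

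Markers of other cells were few above the filter. Of 15 endothelial markers 3 were tested, with Pecam1, Cdh5, Tek, Tie1 and Vwf under the filter, and summed signals were 10285 to 14004 with the interleukin, 12481.1 to 13661 with hydrogen peroxide and 15282 to 17862 with vehicle. Most of each sum was Kdr alone, at 8068.7 and 11213.9 with the interleukin, 11314.9 and 10461.3 with hydrogen peroxide, and 13234.7 and 15689.7 with vehicle. Kdr fell by 0.60 on the log2 scale with the interleukin (limma adjusted p = 0.0194), lost without interleukin array 1 (0.0983) or vehicle array 2 (0.160). Of 9 leukocyte markers 3 were tested, with Ptprc, Itgam and Adgre1 under the filter, and summed signals were 6572 to 7335 with the interleukin, 4552 to 4709 with hydrogen peroxide and 3894 to 3912 with vehicle. Most of each sum was Cd14, at means of 4885, 2817 and 2595 in the same order. Cd14, a lipopolysaccharide co-receptor, was 1.87-fold higher with the interleukin (limma adjusted p = 0.0013), and Cd68, a lysosomal glycoprotein, 2.38-fold (adjusted p = 0.00851). The Cd68 call was lost without interleukin array 1 (0.0567) or vehicle array 1 (0.0696). Cd68 was also called with hydrogen peroxide, by 2.06-fold (limma adjusted p = 0.0419), and lost that call when any hydrogen peroxide or vehicle array was left out (0.117 to 0.209) and with the replicate block (0.0590). Of 12 epithelial and tubule markers 2 were tested and none passed, and summed signals were 1955 to 2197 with the interleukin, 1468 to 1699 with hydrogen peroxide and 2044 to 2147 with vehicle.

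Between the treatments, Pdgfrb was 1.77-fold higher with the interleukin than with hydrogen peroxide (limma adjusted p = 0.000416) and Cd14 1.72-fold higher (adjusted p = 0.00446), each the only call of its marker list. Over all tested genes 10.4% were called in this comparison, 6.30% higher and 4.06% lower. Pde3b was lower with the interleukin by a log2 difference of -0.57 (limma adjusted p = 0.00704), the only call among renin cell markers, and missed the threshold without hydrogen peroxide array 2 (0.0766). P2rx4 and Ccn3 were the only calls of their lists in this comparison, and inward rectifiers, other connexins and the endothelial and epithelial markers had 0. These counts read each gene by its brightest probe set. The dimmer Itga8 probe set 1427489_at was also called lower with the interleukin (log2 -1.18, limma adjusted p = 0.0485).

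The median log2 changes of the lists, with the interleukin first and hydrogen peroxide after it, were -0.27 and 0.19 for other potassium channels, 0.04 and 0.09 for connexin partners, and 0.11 and 0.17 for calcium and ion handling. They were -0.80 and -0.62 for renin cell markers, 0.48 and 0.04 for pericyte and smooth muscle markers, and -0.48 and -0.28 for other connexins and pannexins. Endothelial markers had -0.31 and -0.41, leukocyte markers 0.90 and 0.30, and epithelial and tubule markers -0.33 and -0.17. The same medians over all tested genes were 0.03 and 0.06.

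The genes whose profiles over the 6 arrays lay nearest to the called members were found by the root mean square distance between mean-centred log2 signals. Nearest to Kcnj8 were S100g, a calcium-binding protein, at a distance of 0.188, A2m, a protease inhibitor, at 0.224, and Car12, a membrane carbonic anhydrase, at 0.266. S100g read 2074.5 and 4007.1 with the interleukin, 1150 and 808.8 with hydrogen peroxide, and 3421 and 2441 with vehicle. Like Kcnj8, all 3 were lowest on both hydrogen peroxide arrays, with log2 changes from vehicle of -1.58, -1.47 and -1.07.

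Nearest to Abcc9 were Rnf122, a RING finger ubiquitin ligase, at 0.0656, Pdpn, podoplanin, at 0.0997, and Rdm1, an RNA recognition motif protein, at 0.104. Rnf122 read 1649.4 and 2274.4 with the interleukin, 1100.3 and 1221.3 with hydrogen peroxide, and 1918.7 and 2301.8 with vehicle. Nearest to Gja1, by probe set 1438945_x_at, were Neurl2 at 0.0325, Ankfy1 at 0.0339 and Fbxo6 at 0.0383, whose log2 changes with the interleukin were 0.38, 0.34 and 0.35 and did not pass. Likeness here was the rule of selection over 6 arrays, so these distances carry no test.

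**Figure D5:**
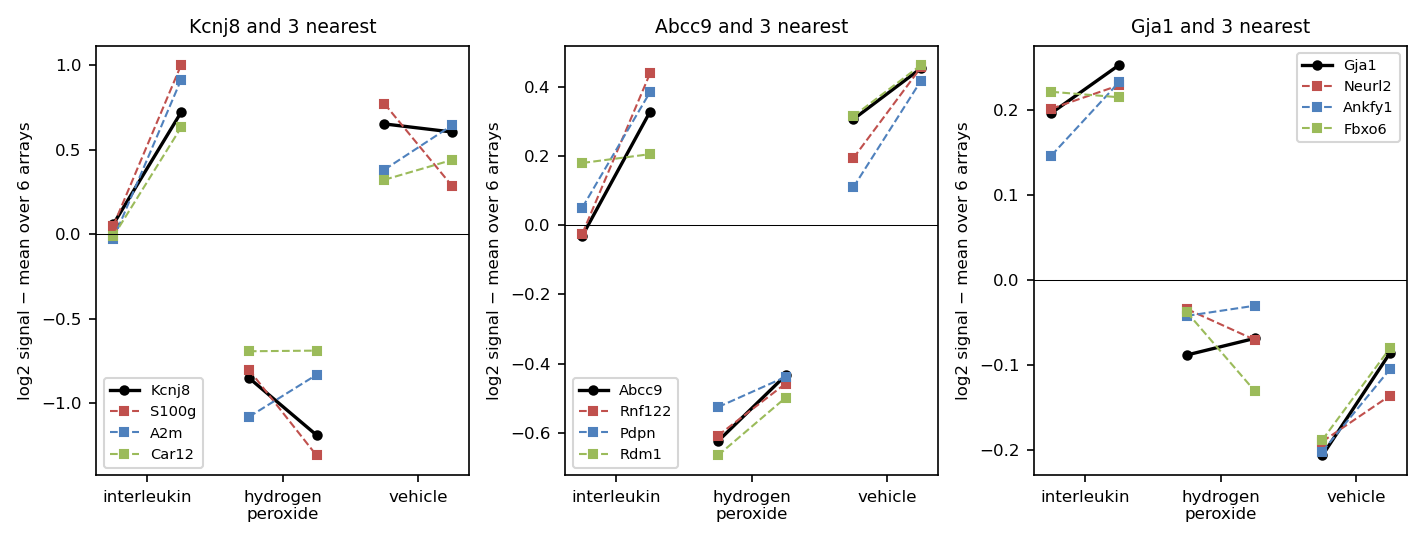
Mean-centred log2 signal on the 6 arrays, ordered as interleukin, hydrogen peroxide and vehicle, for Kcnj8, Abcc9 and Gja1, one panel each, in black, with the 3 genes nearest to each dashed. Kcnj8 and Abcc9 share a dip on both hydrogen peroxide arrays with their neighbours, and the Gja1 panel spans a narrower range.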

How the data were processed

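RNA of 6 samples was read on 1 array each. The deposited intensities are linear MAS5 signals, which the authors computed according to the submitters' processing notes (MAS5 version not given in the sources used here). Every array had a mean of 1500.01 once its highest and lowest 2% were trimmed, so levels are relative to the whole array. Detection calls were not used here. The number of arrays, 2 a group, limits the precision.

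Of 45101 probe sets 34958 carried 1 symbol, 932 several and 9211 none, and 34754 of those with 1 symbol were matched to RefSeq. After removal of 64 controls, log2 signals with a mean at or above the median were fitted in limma 3.58.1 under R 4.3.3, with 1 mean per group, all 6 arrays and a variance trend on signal. P-values were adjusted by Benjamini-Hochberg over the 22519 probe sets tested, with a threshold of 0.05. Folds come from the fitted log2 change, means are arithmetic, and SE is limma's. Probe sets under the filter have values and intervals from a fit without it. A listed gene is read by its brightest tested probe set (10892 genes). The summed signals of a list add the brightest probe set of every listed gene on the array, tested or not.

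The members and the 10 lists (201 distinct genes, from general knowledge) were chosen with earlier results of these data known. Named genes were the members, up to 3 called genes of smallest p per list and comparison, and the 3 nearest profiles of each called member, for Gja1 by its probe set of smallest p. Groups and replicate numbers came from the sample titles. Promoter windows came from RefSeq for 5 of the 6 genes. The fit was tested on simulated data with independent normal noise and no effect shared by an array. It called 54% of planted log2 changes of 0.5, 84% of those of 1 and 100% of those of 2 or 3. Noise shared within an array was left out, so these shares need not hold for the real arrays. The alternatives tried are given with the closing observations.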

Additional observations from a re-analysis of the deposited data

How the results depend on the processing

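Other settings were quantile normalization, 75th percentile centring, a pseudocount of 32, no filter, a stricter filter on low signals, no trend on signal, only the 4 arrays compared, the replicate block, dropping probe sets with names ending in _x_at or _s_at, and leaving out each array. The fall of Kcnj8 with hydrogen peroxide was called in 14 of 15 alternatives and missed without the trend (-1.65, limma adjusted p = 0.0740), and its difference between the treatments was called in 15 of 15. Abcc9 with hydrogen peroxide missed with no filter (-0.91, adjusted p = 0.0940) and without the trend (-0.91, adjusted p = 0.0952), had no value under the stricter filter or without _s_at probe sets, and ran from -1.005 to -0.81 when single arrays were left out. Kcnj8 with the interleukin ran from -0.57 to 0.092 in the same way.

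Read through its other probe sets, Gja1 with the interleukin was 0.25 and 0.37 (called), or 0.17, 0.92 and -0.42 (not called). With hydrogen peroxide those probe sets gave -0.11, -0.024, 0.068, -0.44 and 0.27, and none was called. For 1415800_at that change was -0.07, and 0.0012 after quantile normalization. Between the treatments the other probe sets gave 0.28, 0.27 and 0.30 (called), and 0.02 and 0.65 (not called). The call of 1438650_x_at against vehicle was lost with 75th percentile centring (adjusted p = 0.0824). Between the treatments quantile normalization ended the calls of 1438650_x_at (0.0781) and 1438945_x_at (0.0684), and using only 4 arrays that of 1438650_x_at (0.0736). Without the trend no Gja1 call was kept, and without the filter only that of 1438945_x_at against vehicle (adjusted p = 0.0298). Gjc1 by 1447787_x_at was -0.76 with hydrogen peroxide, and by 1449094_at it ran from -0.24 to 0.13 with the interleukin and from -0.37 to 0.0067 between the treatments without single arrays. Gja5 between the treatments was -0.13 after quantile normalization and 0.031 with the pseudocount, and without single arrays it ran from 0.078 to 0.27 there and from -0.26 to 0.55 with the interleukin.

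Calls over the array fell without the trend to 1783 of 3627 (interleukin against vehicle), 57 of 1282 (hydrogen peroxide against vehicle) and 716 of 1987 (between the treatments), counting numbers only, and to 762 for hydrogen peroxide with no filter. Without single arrays they ran from 1554 to 3583, from 235 to 1751 and from 839 to 1919. The interleukin count was 1554 without vehicle array 1 and 1573 without vehicle array 2. The hydrogen peroxide count was 391 without hydrogen peroxide array 1, 675 without hydrogen peroxide array 2, 235 without vehicle array 1 and 265 without vehicle array 2. Between the treatments it was 839 without hydrogen peroxide array 2. With the replicate block the counts were 3342, 1170 and 1756, and no call of a member changed (Kcnj8 with hydrogen peroxide, adjusted p = 0.0078). Differences of array 1 less array 2 correlated at -0.13 to 0.11 between groups. A correlation over all tested probe sets cannot settle whether the numbers pair the arrays, because a pairing that touched few probe sets would leave it low. Of 36 results for named list genes, 22 were lost without the trend, 10 kept their call in all alternatives run, and none reversed. Of 450 recounts of called list genes, 86 moved by over 1.5 times. The cause of these changes was not tested. Low signal limits Gja4 and Gja5, and 2 arrays a group limit every comparison.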

Other observations

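Gja1 probe set 1438973_x_at read higher on array 1 than on array 2 in each group, by 4.25 times with the interleukin, 10.1 times with hydrogen peroxide and 7.31 times with vehicle. The other tested probe sets of the 6 genes differed between the arrays of a group by 1.58 times at most. The labels do not say whether the replicate numbers mark a shared batch.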
